A study of Mus musculus with 6 samples.

Results

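The mature miRNAs described here are those named miR-3057 to miR-3113, with any letter or arm, apart from miR-3099 and miR-3107. This rule took 113 of the 1055 mature miRNAs in the read tables, which come from 55 hairpins. It uses the name and no measured value. The reads came from whole brains of 3 wild-type and 3 Adar2-/- mice, with a separate library for each brain. All 6 mice were females of the 129SV strain aged 5.5 months. The genotypes were picked from siblings born to heterozygous parents, and which of the 6 shared a litter is not stated. All 6 were also homozygous for Gria2 R/R, a pre-edited allele of a glutamate receptor subunit without which mice lacking ADAR2 die young, so the controls carried it as well. ADAR2 converts adenosine to inosine in double-stranded RNA such as miRNA precursors, and the study asked what its loss does to the abundance and sequence of mature miRNAs in the brain. Adar2 mRNA was not analysed here, so the genotype labels were not checked against it.

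A miRNA gene is transcribed into an RNA that folds back into a hairpin. Drosha and Dicer cut the hairpin into a short duplex with a 5p and a 3p arm, and usually one arm is kept by an Argonaute protein while the other, in older names marked with a star, is lost. The seed, bases 2 to 8 of the mature strand, does most of the pairing with target mRNAs. Some hairpins span a short intron and are released by splicing in place of Drosha (mirtrons). Mouse miRNAs are numbered in order of registration, so high numbers stand for late entries, most of them found by deep sequencing. The questions addressed here are how many of these late entries were well covered in brain, how their reads fell on the arms of each hairpin, and how much they varied between libraries.

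The mature sequences below belong to the hairpins that hold the best covered members and to those with reads on both arms. miR-3064-5p and miR-3085-3p are added because they share a seed. They are printed 5′ to 3′ as RefSeq gives them for GRCm38.p6, with the seed in capitals. The tables name 40 members by an arm that has its own RefSeq sequence. Another 60 members are named without an arm, and for their hairpins both arms are shown because the names do not say which arm is starred. No RefSeq sequence was matched for 13 members, among them those of miR-3096 and miR-3106.
miR-3086-5p: uAGAUUGUaggcccauugga
miR-3057-5p: aUUGGAGCugagauucugcgggau
miR-3068-5p: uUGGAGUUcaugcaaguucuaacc
miR-3068-3p: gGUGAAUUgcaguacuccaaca
miR-3083-5p: aGGCUGGGaauauuucagagau
miR-3083-3p: uCCGAAACauucccagccuuua
miR-3059-5p: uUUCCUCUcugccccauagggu
miR-3059-3p: cCUCUAGGgaagagaagguugg
miR-3082-5p: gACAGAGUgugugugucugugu
miR-3082-3p: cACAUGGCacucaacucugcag
miR-3066-5p: uUGGUUGCuguagauuaaguag
miR-3066-3p: cACUUAAUagaccgcaaccugc
miR-3061-5p: cAGUGGGCcgugaaagguagcc
miR-3061-3p: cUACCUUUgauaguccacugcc
miR-3084-5p: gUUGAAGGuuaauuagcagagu
miR-3084-3p: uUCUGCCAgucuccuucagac
miR-3072-5p: aGGGACCCcgagggagggcagg
miR-3072-3p: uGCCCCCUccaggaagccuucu
miR-3064-5p: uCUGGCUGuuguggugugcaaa
miR-3085-3p: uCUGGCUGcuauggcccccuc
miR-3102-5p.2: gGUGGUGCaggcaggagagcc
miR-3102-3p.2: cUCUACUCccugccccagcca

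The members shown do not form one seed family. miR-3064-5p and miR-3085-3p share the seed CUGGCUG, although their hairpins lie on different chromosomes. Among members with a named arm and a sequence, 5 of the 16 with at least 10 reads in every library began with U, and 13 of the 24 others did. The matched mature sequences were 19 to 25 bases long.

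The libraries held between 12449633 reads on miRNAs (wild-type replicate 1) and 23935544 (Adar2-/- replicate 3). Values are given as reads or as RPM, the reads in every 1000000 that a library had on miRNAs, and values per library follow the order wild-type replicates 1 to 3, then Adar2-/- replicates 1 to 3. miRNA markers of neurons (miR-9, miR-124, miR-128 and miR-138) summed to 126800 to 173000 RPM, so markers of the labelled tissue were present at high levels. Most of this sum was miR-9, at 99100 to 151000 RPM. miR-124 was at 7203 to 25450 RPM, miR-138 at 6872 to 24180 RPM and miR-128 at 386 to 1319 RPM. The summed ranges of the other lists were 283.7 to 708.1 RPM for oligodendrocytes, 420.1 to 1540 RPM for blood, 2236 to 3355 RPM for muscle and 3.951 to 7.228 RPM for liver. Single libraries stood apart on the last lists. The pituitary and endocrine miRNA miR-375 was at 3294 RPM in wild-type replicate 1 against 42.86 to 112.6 RPM in the others, and the pituitary and endocrine list ran from 1010 to 6270 RPM. The sensory list (miR-182, miR-183 and miR-96) was at 19160 RPM in Adar2-/- replicate 3 against 89660 to 186900 RPM in the others. The part of these markers and of depth in the results that follow was not tested. In whole brain, a miRNA in fewer cells and less of it per cell cannot be told apart.

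Few of the late-numbered miRNAs were well covered. Of the 113 members, 38 (33.6%) had at least 10 reads in every library, against 608 of all 1055 miRNAs (57.6%) and 570 of the 942 others (60.5%). At a minimum of 100 reads in every library the members numbered 10 (8.85%), against 399 of all 1055 (37.8%). A further 23 members reached 10 reads in some libraries and 52 in none of the 6. One of these, miR-3060*, had no read in any library, which allows up to 0.125 to 0.241 RPM, the level of 3 reads at these depths, and 12 miRNAs outside the range shared this absence of reads. With 10.7% of the names, the members held 75868 of 124867506 reads, or 0.0608%.

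**Figure D1:**
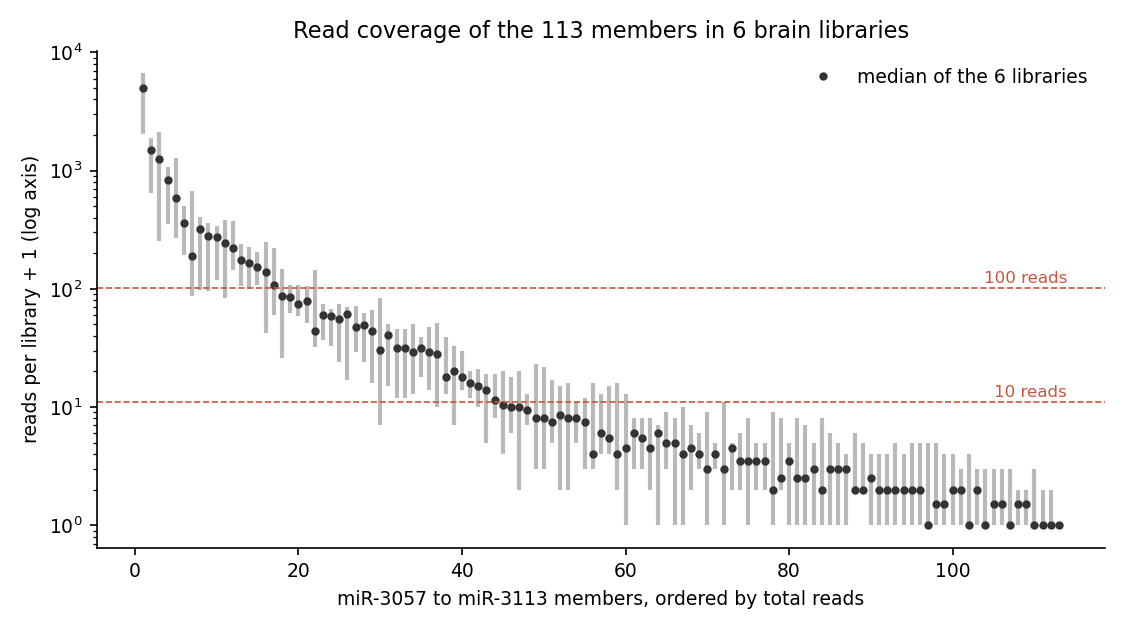
Reads per library on each of the 113 members (vertical log axis, reads + 1), ordered along the horizontal axis by total reads over the 6 libraries. Points are medians and bars run from the lowest to the highest library. The bars of 10 members lie at or above the dashed line for 100 reads and those of 38 at or above the line for 10 reads.

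The reads on members were concentrated on a handful of them. miR-3086-5p alone held 28414 reads, or 37.5% of all member reads, and the 5 most abundant held 68.7%. The 75 members that fell below 10 reads in at least one library held 2068 reads together, and the highest single count among them was 83 reads, of miR-3069-5p in Adar2-/- replicate 3. For 25 members no more than 10 reads were found in all libraries together. The summed level of all members was 616.7 ± 111.5 RPM in wild type and 575.07 ± 56.26 RPM in Adar2-/- (SD, n = 3 each), and the genotypes overlapped (two-sided exact permutation test, p = 0.7, with 0.1 as the smallest p that 3 libraries against 3 can give).

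Coverage was also counted by the form of the name. Of the 32 starred members, 6 had at least 10 reads in every library and 1, miR-3068*, had at least 100. Of their 32 unstarred partners, 15 reached 10 reads and 5 reached 100. Of the 49 members named 5p or 3p, 17 reached 10 reads and 4 reached 100. Counted by hairpin, 27 of the 55 had an arm with at least 10 reads in every library, 9 had an arm with at least 100, and in 16 neither arm reached 10 reads anywhere.

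The minimum of 100 reads separates members of similar level. Just above it lay miR-3066 with a lowest count of 105 reads, miR-3106 with 107, miR-3068* with 118, miR-3096-5p with 144 and miR-3082-3p with 194. Just below it lay miR-3061-3p with a lowest count of 99 reads, miR-3076-3p with 97, miR-3087 with 94, miR-3084* with 86 and miR-3093-3p with 82. miR-3061-5p, miR-3102, miR-3095-3p and miR-3082-5p followed with 62, 59, 58 and 50 reads. The genotype test and the spread at 100 reads leave out the second group, so both are also given for all 38 members with 10 reads.

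miR-3086-5p was the most abundant member, at rank 155 of the 1055 miRNAs by mean RPM. Its levels were 165.1, 237.0 and 283.4 RPM in wild type and 226.4, 203.8 and 220.6 RPM in Adar2-/-. All 3 Adar2-/- libraries lay within the wild-type range. Its hairpin, at chr19:58986163-58986249 on the minus strand of NCBIM37, overlapped no annotated gene of its strand apart from a miRNA gene. Its other arm, miR-3086-3p, had between 2 and 15 reads in a library.

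miR-3068 was next, at rank 245, and miR-3083 was at rank 280. miR-3068 was at 51.41, 68.92 and 64.8 RPM in wild type and at 51.54, 61.31 and 79.13 RPM in Adar2-/-. Its hairpin lies in an intron of Alkbh1, which encodes a dioxygenase that acts on nucleic acids (chr12:88778629-88778707, minus strand, NCBIM37). miR-3083 was at 28.19, 40.3 and 45.88 RPM in wild type and at 36.84, 32.22 and 38.1 RPM in Adar2-/-. For both, the genotypes overlapped, and the lowest value was in wild-type replicate 1.

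miR-3057-5p and miR-3059 varied most among the 5 most abundant members. miR-3057-5p was at 20.32, 76.56 and 89.77 RPM in wild type and at 22.47, 56.73 and 49.59 RPM in Adar2-/-. Both replicate 1 libraries lay below all others, whatever the genotype. The miR-3057 hairpin crosses the edge of a coding exon of Apba3, a gene for an adaptor protein of the X11 family (chr10:80734342-80734432, plus strand, NCBIM37). miR-3059 was at 21.53, 55.93 and 25.18 RPM in wild type and at 31.43, 19.72 and 32.3 RPM in Adar2-/-, so that wild-type replicate 2 stood above the rest. It comes from an intron of Mgat4c, a gene of the N-acetylglucosaminyltransferase family (chr10:101235326-101235406, plus strand, NCBIM37).

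The remaining 5 members were between 5.389 and 23.45 RPM. miR-3082-3p was at 21.85, 15.72 and 21.52 RPM in wild type and at 10.4, 19.55 and 15.25 RPM in Adar2-/-, and miR-3068* was at 23.45, 7.463 and 11.63 RPM against 6.328, 14.25 and 11.61 RPM. In both cases the lowest library was Adar2-/- replicate 1, and the wild-type replicate 1 library was the highest. miR-3096-5p was at 11.57, 9.307 and 16.06 RPM in wild type and at 16.89, 6.869 and 9.651 RPM in Adar2-/-. miR-3066, from an intron of Nol10, a gene for a nucleolar protein (chr12:17362198-17362280, plus strand, NCBIM37), was at 8.434, 9.57 and 10.23 RPM in wild type and at 10.46, 6.445 and 5.389 RPM in Adar2-/-. miR-3106 was at 8.595, 6.146 and 6.561 RPM in wild type and at 8.206, 7.038 and 8.481 RPM in Adar2-/-. The genotypes overlapped for all 5.

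**Figure D2:**
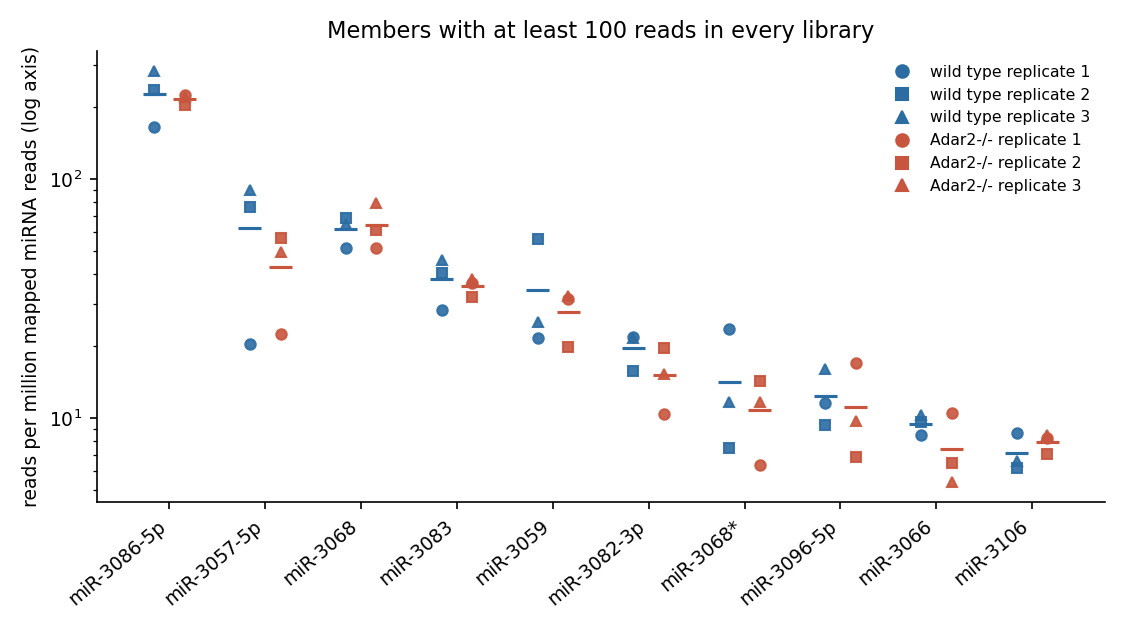
Levels of the 10 members with at least 100 reads in every library, in RPM on a log axis. Each symbol is 1 library, shapes mark the replicate number, and bars are the means of 3 libraries of a genotype (wild type blue, Adar2-/- red). The genotypes overlap for every member, and for miR-3057-5p both circles (replicate 1) lie at 20.32 and 22.47 RPM, below the other 4 libraries.

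No difference between genotypes passed the test for any of the 10 members. With edgeR's quasi-likelihood test on the 399 miRNAs that no library covered by fewer than 100 reads, 0 of the 10 passed an adjusted p of 0.05, where 0% of all 399 passed. At an unadjusted p under 0.05 there were 0 members, against 13 of all 399 (3.26%), and DESeq2 called 0 members and 1 of all 399 (0.251%). The RPM of the genotypes did not overlap for 23 of all 399 (5.76%) and for 0 of the members. The fitted log2 fold change of Adar2-/- over wild type was below 0 for 8 members and above 0 for 2, with a median of -0.22 over the members and 0.0023 over all 399. Without wild-type replicate 3 the split was 5 and 5 with a member median of -0.058, and without Adar2-/- replicate 2 it was 7 below and 3 above with a median of -0.068. These are fitted signs, and no member passed the test in either direction.

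The errors of the fold changes were wide at this number of brains. miR-3057-5p had the lowest log2 fold change, -0.54 (SE 0.55), followed by miR-3068* at -0.39 (SE 0.47), miR-3082-3p at -0.38 (SE 0.35), miR-3066 at -0.34 (SE 0.34) and miR-3059 at -0.30 (SE 0.43). miR-3096-5p, miR-3083 and miR-3086-5p were at -0.15 (SE 0.40), -0.095 (SE 0.33) and -0.075 (SE 0.32). miR-3106 was at 0.16 (SE 0.30) and miR-3068 at 0.052 (SE 0.32). The smallest unadjusted p among values below 0 belonged to miR-3082-3p (0.293), miR-3066 (0.339) and miR-3057-5p (0.349), all from edgeR. Above 0 they were 0.613 for miR-3106 and 0.874 for miR-3068. All adjusted p of edgeR were at least 0.988.

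With the minimum lowered to 10 reads, all 38 covered members could be tested, and 0 of them passed edgeR's test, where 0% of all 608 miRNAs passed. At an unadjusted p under 0.05 there were again 0 members, against 20 of all 608 (3.29%), and DESeq2 called 0 members and 1 of all 608 (0.164%). The fitted fold change was above 0 for 18 members and below 0 for 20. This split moved to 11 and 27 with TMM factors, and to 12 and 26 with DESeq2.

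For 2 of the 38 members all Adar2-/- values were lower than the lowest wild-type value, as they were for 17 of all 608 (2.8%), and for none were they all higher. Over both directions the genotypes did not overlap for 34 of all 608 (5.59%), so the members' share was near that of all miRNAs. miR-3061-5p was at 5.301, 3.907 and 4.559 RPM in wild type and at 3.325, 3.519 and 3.509 RPM in Adar2-/-. Its log2 fold change was -0.41 (SE 0.33) at an adjusted p of 0.982 in edgeR. It comes from the untranslated part of a Ppp2ca exon, the gene of the catalytic subunit of protein phosphatase 2A (chr11:51940248-51940338, plus strand, NCBIM37). miR-3064-5p had 14, 19 and 18 reads in wild type and 13, 11 and 16 in Adar2-/-, which is 0.767 to 1.125 RPM against 0.466 to 0.697 RPM. Its log2 fold change was -0.55 (SE 0.38), with the same adjusted p. Both miRNAs are named here after their values were seen, and a two-sided exact permutation test gave p = 0.1 for each, the smallest it can give.

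The highest fitted values were those of miR-3102-5p.2 and miR-3084*, also named after their values were seen. miR-3102-5p.2 had 45, 41 and 31 reads in wild type and 39, 70 and 143 in Adar2-/-, a log2 fold change of 0.75 (SE 0.50). miR-3084* had 163, 159 and 212 reads in wild type and 86, 372 and 669 in Adar2-/-, which is 6.98 to 13.09 RPM against 4.612 to 27.95 RPM. Its log2 fold change was 0.74 (SE 0.56). Its Adar2-/- replicates 2 and 3 lay above all wild-type libraries and replicate 1 below them, whereas for miR-3102-5p.2 only Adar2-/- replicate 3, at 5.974 RPM, lay above the wild-type range of 1.321 to 3.615 RPM. Both values rested on that library, since without Adar2-/- replicate 3 the log2 fold changes were 0.078 for miR-3084* and 0.20 for miR-3102-5p.2. Without replicate 1 of both genotypes, miR-3084* passed edgeR's test with a log2 fold change of 1.45 and an adjusted p of 0.0416, in a fit of 2 libraries against 2 where 34 of all 608 (5.59%) passed. miR-3102-5p.2 reached 1.52 and an adjusted p of 0.0539 there. In the same fit at 100 reads, 0 of the 10 members passed, against 18 of all 399 (4.51%).

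**Figure D3:**
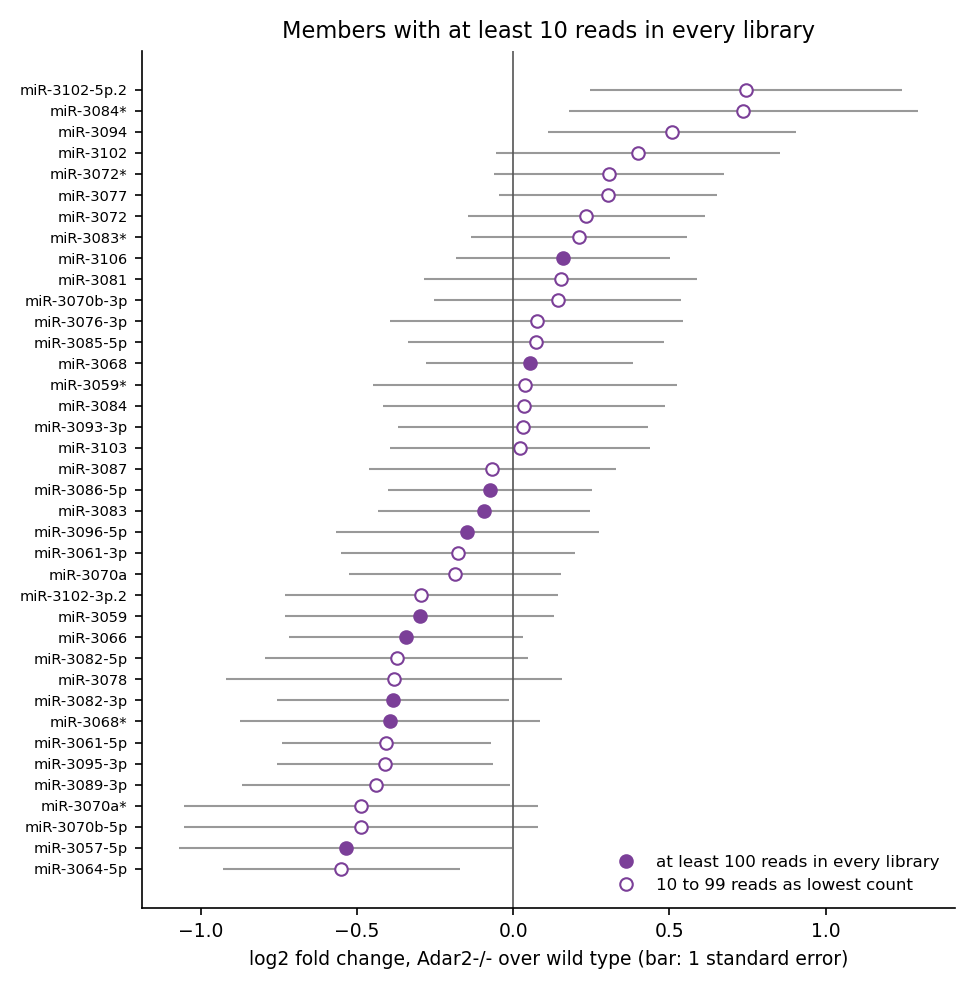
Fitted log2 fold change (Adar2-/- over wild type, edgeR) of the 38 members with at least 10 reads in every library, ordered by value, with bars of 1 standard error. Filled circles are the 10 members with at least 100 reads in every library. Values run from -0.55 for miR-3064-5p to 0.75 for miR-3102-5p.2, 18 lie above 0 and 20 below, and no adjusted p was under 0.05.

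The arm ratio is the log2 of the reads on the 5p or unstarred arm over those on the 3p or starred arm, with 0.5 added to each. It compares the arms named for one hairpin in one library, so it does not depend on library size. Both arms had at least 10 reads in every library for 10 member hairpins and for 195 hairpins of the tables. The median distance from an equal split was 0.97 on the log2 scale, or 1.96-fold, for the 10 member hairpins, and 3.57, or 11.9-fold, for all 195. The arm with more reads was the same in all 6 libraries for 6 of 10 member hairpins and for 163 of all 195 (83.6%). Among the 10, miR-3070a and miR-3070b share the counts of one arm, and the miR-3084 hairpin matched at 2 places. miR-3102-5p.2 with miR-3102-3p.2 is a further pair of arms of the miR-3102 hairpin. The leading arm changed between libraries in each of these entries. The 10 member hairpins also had fewer reads, since 1 of the 10 had at least 100 reads on both arms in every library, against 102 of the 195. When hairpins were taken with at least 100 reads on the higher arm of each library instead, the median was 38.2-fold for 10 member hairpins and 35.6-fold for all 236, and the same arm led in 9 of 10 and in 215 of all 236 (91.1%).

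In 6 of the 10 hairpins the same arm led in every library. miR-3083 led its starred arm most clearly, with log2 ratios of 4.33, 4.87 and 5.14 in wild type and 4.32, 4.69 and 4.57 in Adar2-/-, a mean of 4.65 ± 0.32 (SD, n = 6). miR-3059 led with 2.06, 4.94 and 4.19 against 3.33, 3.02 and 3.52, a mean of 3.51 ± 0.99. miR-3068 led with 1.13, 3.20 and 2.48 against 3.02, 2.10 and 2.77, a mean of 2.45 ± 0.76. Wild-type replicate 1, the shallowest library, had the lowest ratio for miR-3059 and miR-3068, with 64 reads of miR-3059* and 292 reads of miR-3068*. The 3p arm led in miR-3082, with log2 ratios of -1.85, -2.54 and -2.27 in wild type and -1.27, -3.19 and -2.05 in Adar2-/-. It led more narrowly in miR-3061, at -0.92, -0.71 and -0.98 against -0.67, -1.43 and -1.11. The starred arm had more reads in miR-3072, at -0.80, -1.10 and -0.073 against -1.54, -0.55 and -0.060. In replicate 3 of both genotypes its arms were near equal, at 38 against 40 reads in wild type and 47 against 49 in Adar2-/-. Its star thus did not mark a lesser arm in these brains, but the lead of the starred arm was narrow in these libraries.

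In the other 4 hairpins the leading arm changed between libraries. miR-3084 had log2 ratios to miR-3084* of -1.98, 0.63 and -0.70 in wild type and 0.27, -1.33 and -1.73 in Adar2-/-, and the starred arm had more reads in 4 of the 6. miR-3102-5p.2 against miR-3102-3p.2 gave -0.12, 0.54 and -1.16 in wild type and -0.14, 0.29 and 1.69 in Adar2-/-. The ratios of miR-3070a to miR-3070a* were -0.077, 1.24 and 1.03 against -0.032, 2.70 and 0.93, and those of miR-3070b-5p to miR-3070b-3p were 1.22, -1.01 and -0.94 against 0.49, -2.47 and -1.34. Replicate 1 of both genotypes stood apart from the other 4 libraries in both miR-3070 hairpins. Their miR-3070a* and miR-3070b-5p counts were identical in all libraries, with 182 reads each in total, and RefSeq gives both hairpins one 5p sequence, so those reads could not be assigned to one of them.
miR-3070-5p: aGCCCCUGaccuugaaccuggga
miR-3070-3p: uGGUGCUAccgucagggguaga
miR-3070-2-3p: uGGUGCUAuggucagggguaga

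No difference in arm ratio between genotypes passed the test for any member hairpin. With limma on the 195 hairpins, 0 of the 10 member hairpins passed an adjusted p of 0.05, where 0% of all 195 passed, and 0 had an unadjusted p under 0.05, against 5 of all 195 (2.56%). The difference of Adar2-/- minus wild type was widest for miR-3102-5p.2 over miR-3102-3p.2 at 0.86 and miR-3070b at -0.86 on the log2 scale, with two-sided exact permutation p = 0.5 and 0.4. It was 0.47 for miR-3070a (exact permutation p = 0.8) and -0.44 for miR-3059 (exact permutation p = 0.7), and it lay between -0.25 and 0.36 for the other 6. The lowest adjusted p of a member hairpin in limma was 0.884. The median SD of the ratio over the 6 libraries was 0.848 for the member hairpins and 0.586 for all 195.

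**Figure D4:**
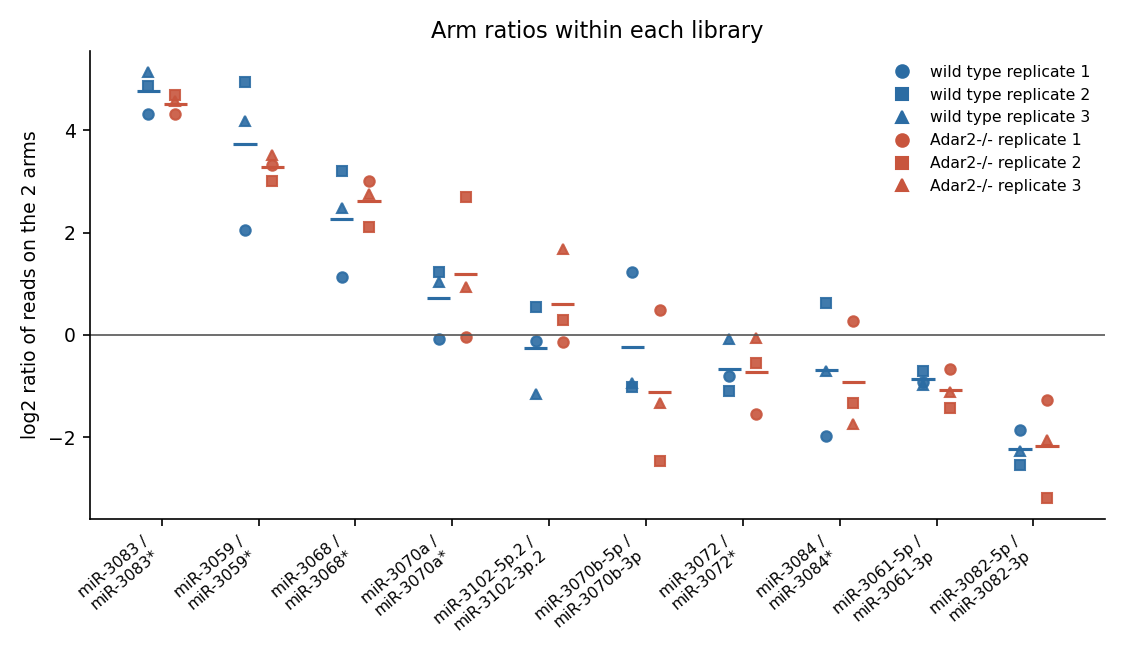
log2 ratio of the reads on the arms of each of the 10 hairpins with at least 10 reads on both arms in every library, first-named arm over second. Each symbol is 1 library, shapes mark the replicate number, and bars are genotype means (wild type blue, Adar2-/- red). Means over the 6 libraries run from 4.65 for miR-3083 to -2.20 for miR-3082, and the symbols lie on both sides of 0 for miR-3070a, miR-3102-5p.2 with miR-3102-3p.2, miR-3070b and miR-3084.

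Other abundant members came from hairpins with reads almost all on one arm. miR-3057-5p had 7048 reads in all against 13 of miR-3057-3p, and miR-3066 had 1039 against 3 of miR-3066*. miR-3096-5p had 1441 against 15 of miR-3096-3p, and miR-3106 had 923 against 16 of miR-3106*. miR-3081, from an intron of Boc, a coreceptor of hedgehog signalling, had 524 against 8 of miR-3081*. In each of these 5 hairpins the first-named arm led in all 6 libraries. The 3p arm led by far in miR-3093, with 1458 reads against 55, and in miR-3076, with 1601 against 35. miR-3087 had 1502 reads against 24 of miR-3087*. miR-3102 had 715 against 11 of miR-3102*, unlike miR-3102-5p.2 and miR-3102-3p.2 of the same hairpin, whose leading arm changed between libraries.

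The spread of the well-covered members between libraries was near that of other miRNAs. The SD of log2 RPM over the 6 libraries had a median of 0.399 for the 10 members and of 0.447 for all 399 miRNAs with at least 100 reads, and 4 of the 10 lay above the latter. Within wild type the medians were 0.380 for the members and 0.421 for all 399, and within Adar2-/- they were 0.429 and 0.383. The SD was lowest for miR-3106 (0.207), miR-3068 (0.243), miR-3083 (0.247) and miR-3086-5p (0.257). It was highest for miR-3057-5p (0.898), miR-3068* (0.676) and miR-3059 (0.543). Counting alone would give an SD of 0.0225 to 0.119 for these 10, and in 9 of them the observed SD was more than 2 times that.

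Among the 28 members whose lowest count was 10 to 99 reads, levels ran from 0.466 to 27.95 RPM. Their median SD was 0.471, against 0.489 for the 209 miRNAs of all kinds in that range. Counting alone would give them a median SD of 0.212. Over all 38 covered members, the SD was less than 2 times the counting SD in 14.

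**Figure D5:**
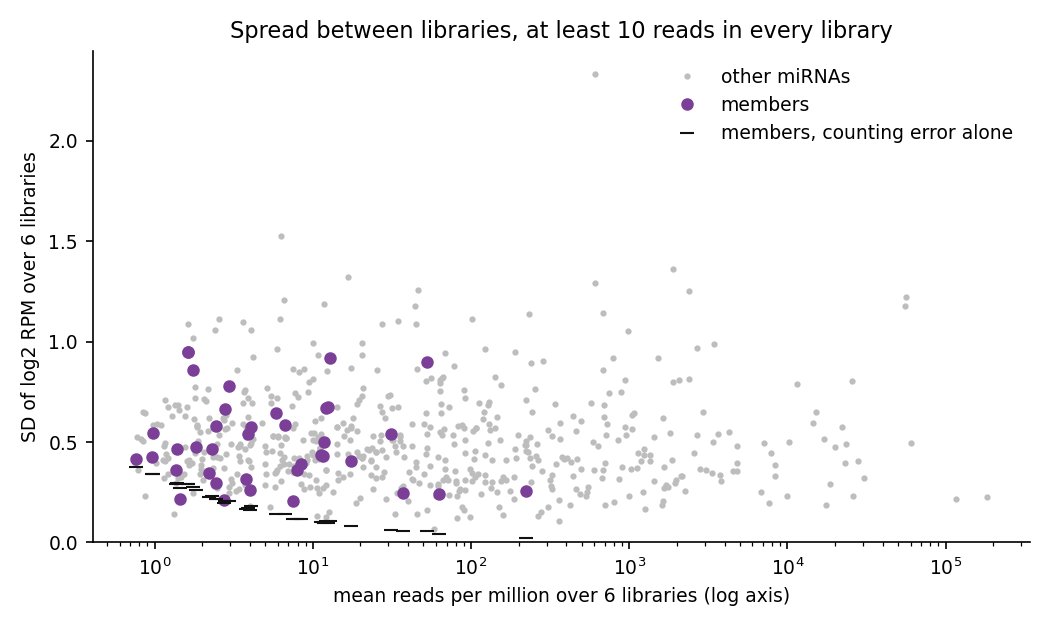
SD of log2 RPM over the 6 libraries (vertical axis) against mean RPM (horizontal log axis) for the 608 miRNAs that reached 10 reads in each of them. Members are purple, other miRNAs grey, and black dashes give the SD that counting error alone would produce for each member. The member medians of 0.399 (100 reads) and 0.471 (10 to 99 reads) lie near those of other miRNAs, and miR-3057-5p stands at 0.898.

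Some members set the replicate 1 libraries apart, at a share near that of all miRNAs. Both replicate 1 libraries were below the other 4 for 7 of the 38 covered members, and for 89 of all 608 miRNAs (14.6%). These 7 were miR-3057-5p, miR-3068, miR-3070b-3p, miR-3076-3p, miR-3085-5p, miR-3087 and miR-3103. miR-3076-3p was at 5.202 to 7.872 RPM in replicate 1 and at 12.99 to 17.21 RPM in the others, and miR-3087 at 7.55 to 8.206 RPM against 10.68 to 15.0 RPM. Both replicate 1 libraries were above the other 4 for 3 members and for 45 of all 608 (7.4%). These members were miR-3059* and the pair miR-3070a* and miR-3070b-5p, whose counts are identical and so are not separate observations. The replicate 1 libraries were the shallowest of each genotype, and their column names carry s7 and s8 where those of replicates 2 and 3 carry s1 and s2. Whether depth or what these numbers stand for has a part in this was not tested.

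Of the 55 hairpins, 49 could be placed on NCBIM37, 46 by an exact match of the RefSeq hairpin and 3 (miR-3090, miR-3102 and miR-3108) by exact matches of their mature sequences. With genes of miRNAs and other small RNAs left aside, 18 of these 49 lay inside an intron, 13 outside any annotated gene of their strand and 6 in or across an exon. A group of 11 ended within 2 bases of a 3′ splice site, and the mature sequences of miR-3102 together spanned an intron of 104 bases in Arhgef17 (chr7:108030821-108030923, minus strand). In the group of 11, miR-3062 also covered a whole intron, of 97 bases in Pfas, and reached past both splice sites. Others began far from the 5′ splice site, by 1811 bases for miR-3094, 903 for miR-3076 and 671 for miR-3064, or nearer, by 26 for miR-3087. An end at a 3′ splice site alone does not show release by splicing, which was not tested. The 6 left unplaced were miR-3073, miR-3078, miR-3079, miR-3096, miR-3106 and miR-3113. Hairpins with an arm of at least 10 reads in every library made up 7 of the 11 at a splice site, 8 of the 18 in introns, 6 of the 13 outside genes, 2 of the 6 in exons, miR-3102 and 3 of the 6 unplaced. With an arm of at least 100 reads they were 1, 3, 2 and 1, and the other 2 were among the unplaced.

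The 7 covered hairpins at a 3′ splice site were miR-3064, miR-3076, miR-3077, miR-3082, miR-3087, miR-3094 and miR-3103. miR-3082 ends at a splice site of Stub1, which encodes a ubiquitin ligase that works with chaperones (chr17:25968310-25968373, minus strand). As printed above, its 3p sequence ends in the cag typical of a 3′ splice site. The same holds for the 3p arm of miR-3076, at a splice site of the transketolase gene Tkt (chr14:31385335-31385394, plus strand).
miR-3076-3p: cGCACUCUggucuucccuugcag
miR-3087 ends at a splice site of Abca2, a lipid transporter gene (chr2:25298299-25298354, plus strand), and miR-3064 at one of Ddx5, an RNA helicase of the Drosha complex (chr11:106644007-106644073, minus strand). Of the 6 splice-site hairpins with named arms, the 3p arm had more reads in 4, as it did in 7 of the 13 other placed hairpins with named arms. The total reads of 5p and 3p were 458 and 2155 for miR-3082, 35 and 1601 for miR-3076, 48 and 87 for miR-3097 and 6 and 37 for miR-3104. The 5p arm led in miR-3064 with 91 against 8 and in miR-3100 with 27 against 7.

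The hairpins of miR-3065, miR-3071 and miR-3074 lie opposite other miRNA genes, so that their mature strands are reverse complements of well known miRNAs. The pairs are printed here with the complementary run in capitals, which shows that the strand of a read is what tells a member from its partner.
miR-3065-5p: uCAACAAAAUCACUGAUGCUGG
miR-338-3p: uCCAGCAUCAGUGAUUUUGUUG
miR-3071-3p: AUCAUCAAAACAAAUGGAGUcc
miR-136-5p: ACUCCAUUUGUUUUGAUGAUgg
miR-3071-5p: ACUCAUUUGAGACGAUGAUgga
miR-136-3p: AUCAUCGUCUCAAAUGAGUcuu
miR-3074-5p: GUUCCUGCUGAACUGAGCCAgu
miR-24-3p: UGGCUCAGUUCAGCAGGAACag
The runs are 21, 20, 19 and 20 bases long. None of the members of these 3 hairpins had 10 reads in every library, and miR-3074-5p alone reached 10 in some. miR-3074-5p had 7, 11 and 16 reads in wild type and 10, 18 and 7 in Adar2-/-. miR-3065 had 0, 0 and 1 reads in wild type and 2, 1 and 1 in Adar2-/-, and miR-3065* had 2, 3 and 7 against 0, 1 and 0. miR-3071 had 1, 1 and 0 against 0, 1 and 0, and miR-3071* had 1, 1 and 3 against 0, 0 and 3. miR-3074-2-3p had 1, 3 and 0 against 1, 2 and 1, and miR-3074-1-3p had 0, 1 and 1 against 4, 4 and 7. In a fit with no filter on reads, miR-3065* (lower in Adar2-/-) and miR-3074-1-3p (higher) were the 2 of 112 members with an unadjusted p under 0.05, against 38 of all 1042 miRNAs (3.65%). Both had an adjusted p of 0.988 in edgeR, where 0% of all passed, and their counts were at most 7 reads. Their partners were abundant, with miR-338-3p, an oligodendrocyte miRNA, at 210.7 to 519.3 RPM, miR-136 at 2232 to 4401 RPM and miR-24 at 6191 to 12770 RPM.

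The imprinted Dlk1-Dio3 region of chromosome 12 holds 4 member hairpins. miR-3070a, miR-3070b and miR-3072 lie on its plus strand and are covered, and miR-3071 lies within the coding sequence of Rtl1, a retrotransposon-derived gene of the opposite strand. miR-3070a (chr12:110826153-110826241) had 36, 69 and 66 reads in wild type and 44, 74 and 52 in Adar2-/-. miR-3070b-3p (chr12:110826802-110826890) had 16, 59 and 62 against 32, 63 and 69. miR-3072* comes from an intron of Mirg, the noncoding RNA that hosts a cluster of miRNAs there (chr12:110986088-110986170), and had 23, 54 and 40 against 62, 47 and 49. The genotypes overlapped for all of them. The miR-3084 hairpin matched at 2 places on chromosome 19, in introns of Cbwd1 (chr19:25016725-25016793) and of Eif3a, a translation initiation factor (chr19:60850232-60850300), so its reads cannot be given to one gene.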

How the data were processed

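The authors removed adaptors from the reads with Cutadapt, mapped them to miRBase mature sequences with NextGenMap, and kept forward-strand hits only. Reads that fitted several miRNAs equally well were shared out by weights. They deposited raw counts for 1055 mature miRNAs without normalization, in 3 tables with 1 library of each genotype. Tool versions are not given in the sources used here. The 12 blank lines without a name were dropped, and each column was given to the sample of its genotype and table number. Per the labels the genome build is mm9 (NCBIM37).

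RPM is reads per 1000000 mapped miRNA reads. Genotypes were compared with edgeR 4.0.16 in R 4.3.3 (quasi-likelihood test, two-sided), with each library's sum of miRNA reads as its size, no scaling factor and no block. miRNAs entered the test if no library covered them by fewer than 100 reads. Arm ratios were tested with limma 3.58.1 for hairpins with at least 10 reads on both arms. p-values were adjusted by Benjamini-Hochberg over all miRNAs or hairpins tested, with a threshold of 0.05. Single values were compared by exact permutation tests. Counting SDs assume Poisson reads and cover counting error only, since reads are not independent molecules. Hairpin sequences of RefSeq (GRCm38.p6) were searched exactly in NCBIM37, or the mature sequences where no hairpin sequence was used, and read against the GENCODE vM1 annotation. Genes annotated there as miRNA, snRNA, snoRNA or misc_RNA were left out when hairpins were placed in or outside genes. The named members are those with at least 100 reads in every library, those of hairpins with both arms covered, the 3 smallest unadjusted p in each direction, those with a lowest count between 50 and 200, those without reads and opposite-strand partners. The results were recomputed with DESeq2 1.42.0, TMM factors, library sizes that leave out the 5 most abundant miRNAs, other read minimums and pseudocounts, a replicate block, and left-out libraries. Some fits at 10 reads were added after the data were seen. The members, lists and tests were chosen with earlier results of these data known. The procedures were tested on simulated data. Python 3.11.15 with pandas 2.3.3, numpy 2.4.6, scipy 1.17.1 and matplotlib 3.10.9 served for the rest.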

Additional observations from a re-analysis of the deposited data

How the results depend on the processing

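Depth limits what these members can show, since most had fewer than 10 reads in some library and 3 brains of a genotype leave wide intervals. The number of members with at least 10 reads was 38 in every library and 61 in 1 or more libraries, and between 31 and 42 under the other alternatives. The number with at least 100 reads was 10 in every library, 6 at 100 reads per 10000000 mapped reads in every library and 22 in 1 or more libraries, and between 10 and 13 with a library left out. The number of members called between genotypes was 0 under every alternative that kept all 6 libraries, and between 0 and 1 with libraries left out, the 1 being miR-3084* without replicate 1 at 10 reads, where its log2 fold change was 1.45. Deviations of same-numbered libraries had correlations of -0.001, -0.076 and -0.014, and the numbers were not taken to pair brains. These correlations do not exclude shifts shared by same-numbered libraries. At the minimum of 10 reads, both replicate 1 libraries lay below the other 4 for 89 of all 608 miRNAs and above them for 45. With the replicate block edgeR called 0 of 399 miRNAs and 0 members, with 7 at an unadjusted p under 0.05 (9 with TMM factors) against 13 without the block. The log2 fold changes of miR-3057-5p, miR-3066, miR-3082-3p and miR-3106 kept their sign under the 14 alternatives run at the minimum of 100 reads. Their ranges were -0.95 to -0.18, -0.74 to -0.093, -0.76 to -0.098 and 0.051 to 0.32 with libraries left out. The log2 fold change of miR-3068 turned to -0.033 with totals that leave out the 5 most abundant miRNAs and to -0.029 with DESeq2. With libraries left out the fold changes ran from -0.64 to 0.45 for miR-3059, -0.13 to 0.19 for miR-3068, -0.96 to 0.44 for miR-3068*, -0.29 to 0.060 for miR-3083, -0.29 to 0.11 for miR-3086-5p, -0.62 to 0.19 for miR-3096-5p, -0.077 to 1.52 for miR-3102-5p.2 and 0.029 to 1.45 for miR-3084*. The arm ratio difference called 0 member hairpins under every alternative, and kept its sign for miR-3070b (-1.66 to -0.13 with libraries left out) and miR-3083 (-0.48 to -0.073). With libraries left out it ran from -1.30 to 0.30 for miR-3059, -0.43 to 0.055 for miR-3061, -0.40 to 1.09 for miR-3068, -0.28 to 1.08 for miR-3070a, -0.39 to 0.35 for miR-3072, -0.40 to 0.56 for miR-3082, -1.49 to 0.61 for miR-3084 and -0.13 to 1.42 for miR-3102-5p.2 with miR-3102-3p.2. The ratio of the members' median SD to that of all miRNAs was 0.892, and between 0.770 and 1.07 under the alternatives. The cause of these changes was not tested.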
